A study of Mus musculus with 32 samples.

Results

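The 10 genes *Runx1*, *Gata2*, *Tal1*, *Lmo2*, *Fli1*, *Erg*, *Gata1*, *Gata3*, *Runx3* and *Runx2* were followed through 16 ChIP-seq peak lists of *Kat2a* WT and *Kat2a* KO *MLL-AF9* leukemias. They were taken by name from the GENCODE M21 annotation of the mm10 mouse genome, all 10 were found, and they are 10 of 21938 protein-coding genes. *Runx1*, *Gata2*, *Tal1*, *Lmo2*, *Fli1* and *Erg* (6 genes) were set as the progenitor group. *Gata1* (erythroid), *Gata3* and *Runx3* (T cell) and *Runx2* (bone) formed the other-lineage group of 4 genes.

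Both genotypes came from *Kat2a* Flox/Flox mice, without Mx1-Cre for WT and with Mx1-Cre for KO, and both were treated with pIpC, which switches on the interferon-responsive Mx1 promoter. Lineage-depleted bone marrow collected 4 to 6 weeks later was transduced with a retrovirus carrying *MLL-AF9* and transplanted into lethally irradiated mice. Terminal leukemic bone marrow was pooled from 5 WT and from 4 KO animals, and H3K4me3, H3K9ac, H3K27ac and H3K4me1 were each profiled in 2 replicates per pool. The labels give 5000000 cells per ChIP for H3K4me3 and H3K9ac, and 500000 for H3K27ac and H3K4me1. The replicates are separate cell samples and chromatin preparations of the same pool, so their spread leaves out the variation between leukemias. Mx1-Cre acts in many cell types, recipient marrow can still hold host cells, and excision in these pools was not measured here. *Kat2a* itself carried a promoter peak in all H3K4me3 and H3K9ac lists, at fold enrichments of 3.52 to 10.8 and of 4.58 to 11.8. The labels do not give the extent of the excised part, so these peaks do not check the genotype.

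RUNX proteins bind DNA through the Runt domain together with CBFB. GATA factors bind GATA sites, FLI1 and ERG are ETS factors, TAL1 is a basic helix-loop-helix protein that binds E-boxes with an E protein, and LMO2 is a bridging protein without DNA binding of its own. In blood stem and progenitor cells these factors occupy many of the same enhancers, including their own. *Gata1* drives erythroid and megakaryocytic differentiation, *Gata3* T cell development, *Runx3* the CD8 and innate lymphoid fates and *Runx2* bone formation. H3K4me3 marks active promoters, H3K4me1 enhancers, and H3K9ac and H3K27ac active promoters and enhancers. Kat2a is an acetyltransferase best known for H3K9ac.

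A peak list gives, for each peak, the fold enrichment over background at its summit. The lists held 15685 to 33605 peaks for H3K4me3 and H3K9ac, and they hold no read counts, so depth and detection limits are unknown. Replicate 1 of H3K27ac and of H3K4me1 stood apart in both genotypes: its peaks had median widths of 48 to 49 bp and at most 13 of them had a q-value of at most 0.05. Replicate 2 was therefore used for these marks, and replicate 1 is given beside it. Myeloid promoters were marked by H3K4me3 in 8, 6, 7 and 6 of 8 genes (WT replicates 1 and 2, then KO replicates 1 and 2). For erythroid genes the numbers were 4, 1, 3 and 5 of 8, and for T cell genes 2, 1, 1 and 1 of 8.

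The 10 genes have 35 promoters when start sites (TSS) within 500 bp of each other are joined, and promoters are numbered here from 5′ to 3′ of the gene. The 200 bases upstream of 6 of them are printed because they show the main contrast among alternative promoters: *Runx1* uses a CpG-poor and a CpG-rich promoter, *Runx3* is marked mainly at its CpG-rich promoter, and *Erg* is marked at the CpG-poor promoter 4 and not at promoter 1. Capitals mark CpG dinucleotides. The sequences are from the RefSeq copy of GRCm38 (mm10), written 5′ to 3′ on the strand of the gene, and none holds an annotated exon. The windows of *Runx1* promoter 2, *Runx3* promoter 2 and *Erg* promoter 4 are intronic.
Runx1 promoter 1, chr16:92826150-92826349, minus strand: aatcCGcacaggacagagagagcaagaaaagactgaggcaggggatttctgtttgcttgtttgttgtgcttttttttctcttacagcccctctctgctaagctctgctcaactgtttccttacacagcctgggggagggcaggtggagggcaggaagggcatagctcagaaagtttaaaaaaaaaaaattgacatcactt
Runx1 promoter 2, chr16:92697329-92697528, minus strand: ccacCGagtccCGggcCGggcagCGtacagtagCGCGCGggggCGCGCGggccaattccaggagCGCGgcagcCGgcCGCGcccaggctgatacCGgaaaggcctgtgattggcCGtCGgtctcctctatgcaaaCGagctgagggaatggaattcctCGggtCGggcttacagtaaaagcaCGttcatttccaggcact
Runx3 promoter 1, chr4:135120452-135120651, plus strand: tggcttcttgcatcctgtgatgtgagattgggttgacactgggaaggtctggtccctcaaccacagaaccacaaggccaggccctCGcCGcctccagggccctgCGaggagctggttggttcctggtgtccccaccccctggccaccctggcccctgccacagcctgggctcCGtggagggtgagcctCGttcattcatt
Runx3 promoter 2, chr4:135152296-135152495, plus strand: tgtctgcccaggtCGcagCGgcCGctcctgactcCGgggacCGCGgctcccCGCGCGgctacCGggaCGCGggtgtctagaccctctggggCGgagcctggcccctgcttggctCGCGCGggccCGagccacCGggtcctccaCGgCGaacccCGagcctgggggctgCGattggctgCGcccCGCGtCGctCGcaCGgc
Erg promoter 1, chr16:95586594-95586793, minus strand: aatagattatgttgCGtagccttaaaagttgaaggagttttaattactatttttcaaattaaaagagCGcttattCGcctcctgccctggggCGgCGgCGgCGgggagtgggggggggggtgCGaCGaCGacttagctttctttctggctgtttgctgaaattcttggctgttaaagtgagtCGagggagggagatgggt
Erg promoter 4, chr16:95459349-95459548, minus strand: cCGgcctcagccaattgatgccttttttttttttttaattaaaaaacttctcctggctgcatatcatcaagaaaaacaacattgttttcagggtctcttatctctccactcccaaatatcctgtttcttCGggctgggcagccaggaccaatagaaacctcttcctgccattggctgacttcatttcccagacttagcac
The number of CpGs in these windows was 1 and 22 for *Runx1*, 5 and 28 for *Runx3*, and 11 and 2 for *Erg*, against a median of 3 over 52546 promoters. The window of *Runx3* promoter 1 holds the RUNX motif letters TGTGGT on the opposite strand at 2 places, as ACCACA. Over all promoters, 12.5% of upstream windows held this motif on either strand. Among the members it was also found upstream of *Runx2* promoter 1, *Gata2* promoters 2 and 3, *Erg* promoter 3 and *Gata3* promoter 4.

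H3K4me3 and H3K9ac marked the promoters of all 6 progenitor genes in every WT and KO list, whereas *Gata1*, the erythroid master regulator, carried neither mark in the windows of its 3 promoters in any list. Of the 10 genes, 9 and 8 had an H3K4me3 peak in a window of 1 kb before and 500 bp after any TSS in WT replicates 1 and 2, against 9 in each KO replicate. The same count was 9 and 8 for H3K9ac in WT against 9 and 8 in KO. Over all protein-coding genes the shares were 55.6% and 48.7% in WT against 51.8% and 53% in KO for H3K4me3, and 54.4%, 52.7%, 51.5% and 52.2% for H3K9ac. The KO mean minus the WT mean was 0.5 genes for H3K4me3 and 0 for H3K9ac, and the two-sided exact permutation test gave p = 1 for each. With 2 libraries against 2, this test can give no p under 0.333. At the outermost TSS alone, the H3K4me3 counts were 5 and 4 of 10 genes in each genotype. The H3K9ac counts were then 6 and 6 in WT against 5 and 6 in KO. The share of all genes was not computed for that window. A gene with more TSS has more windows, and the members have 35 promoters for 10 genes, beside 52546 for 21938 genes. The counts over any TSS are therefore not on equal terms with the shares of all genes.

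In replicate 2, H3K27ac marked the promoters of 7 genes in WT and of 8 in KO, where the shares of all genes were 44.3% and 49.8%. *Tal1* made the difference, with no H3K27ac peak in WT and a fold enrichment of 5.21 in KO. H3K4me1 promoter peaks were listed for 3 genes in WT and 9 in KO, beside 18.4% and 37.2% of all genes, so the lists differ in this direction genome-wide. The H3K4me1 list of WT replicate 2 is also the poorer one. A q-value of at most 0.05 was reached by 34.3% of its peaks, against 83.6% in KO replicate 2. The median widths were 215 and 425 bp. At that q-value the genes numbered 2 in WT and 9 in KO. Replicate 1 listed 1 gene in WT (*Runx2*) and 0 in KO for H3K27ac, beside 12.7% and 0.47% of all genes. It listed 0 in both genotypes for H3K4me1, beside 1.85% and 3.29%. Of the 14 partner and cofactor genes, 11 to 13 had a promoter peak of H3K4me3 and 13 one of H3K9ac in each list. Among these partners are *Cbfb*, *Lyl1*, *Ldb1* and *Myb*. *Runx1t1*, which encodes the corepressor ETO, had no H3K9ac promoter peak in any list.

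**Figure D1:**
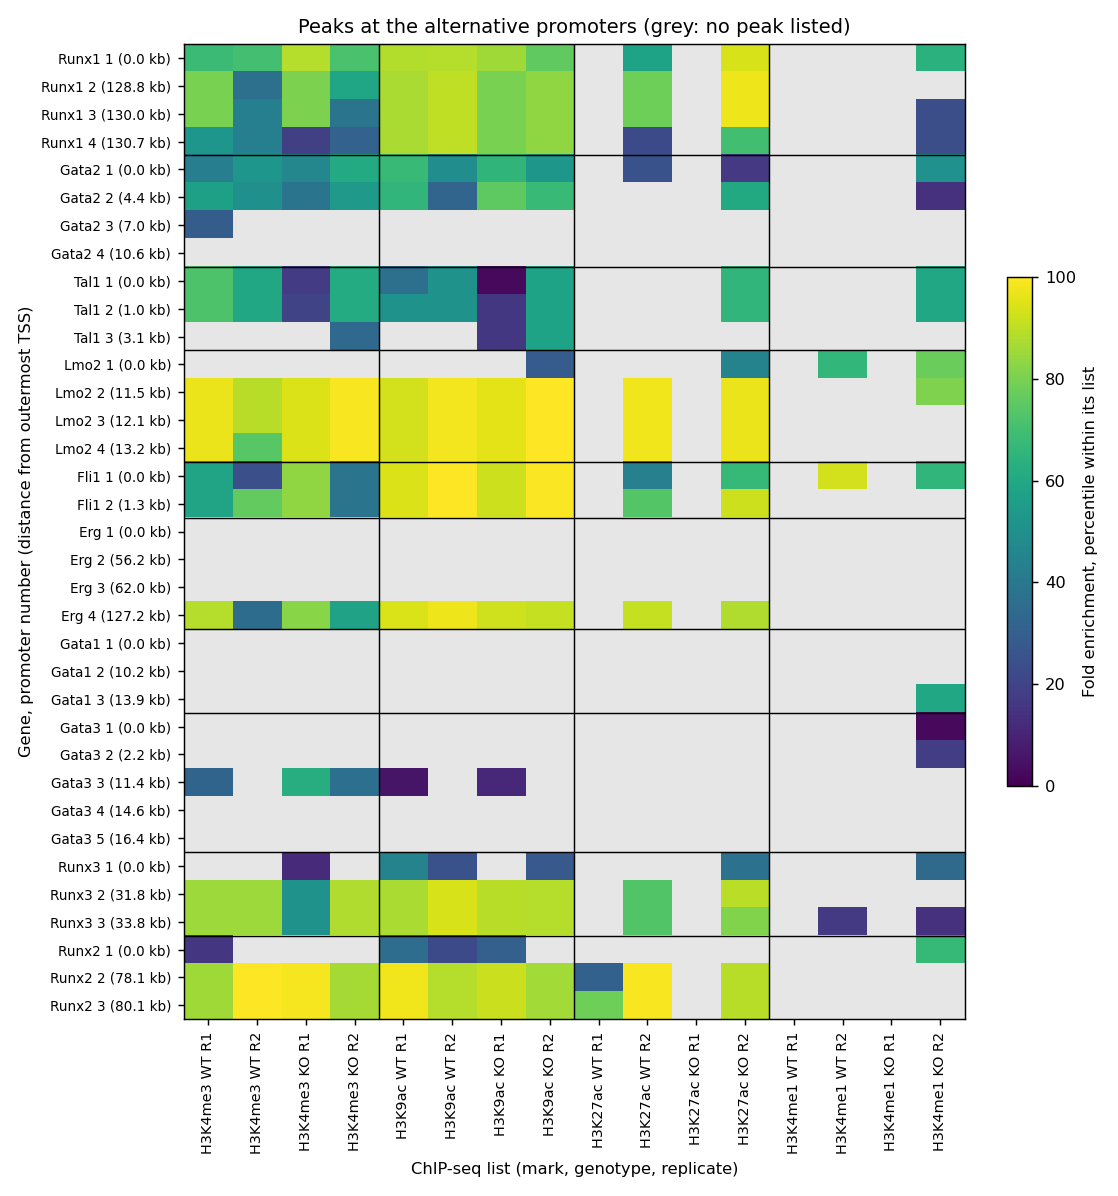
Peaks at the 35 promoters of the 10 genes (rows, with the distance in kb from the outermost TSS) in the 16 lists (columns). Color gives the percentile of the strongest peak's fold enrichment within its own list, and grey means that no peak is listed. H3K4me3 and H3K9ac are present in all 4 lists of the mark at 18 promoters each, whereas replicate 1 of H3K27ac and H3K4me1 is almost empty.

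Of the 35 promoters, 18 had an H3K4me3 peak in all 4 lists, 5 in 1 to 3 lists and 12 in none, and the counts were the same for H3K9ac. All 4 *Runx1* promoters were marked, with promoters 3 and 4 under the H3K9ac peak of promoter 2. Promoter 1, the distal one on chromosome 16 at 92826149, had H3K9ac fold enrichments of 13.5 and 14.4 in WT against 11.8 and 9.87 in KO. Promoter 2, 129 kb further downstream at 92697328, had 12.91 and 15.5 in WT against 9.47 and 12.88 in KO. Both KO values lay below both WT values at each, although at promoter 2 the nearest values were almost equal. H3K27ac in replicate 2 was 4.72 in WT and 11.7 in KO at promoter 1, and 6.34 and 14.5 at promoter 2. These are 1 list per genotype, and fold enrichments of different lists are not on 1 scale. As percentiles within their lists they were 57.9 in WT and 94.0 in KO at promoter 1, and 77.9 and 97.4 at promoter 2. The percentile depends on the peaks listed, which numbered 29757 in WT and 46047 in KO. For the strongest H3K27ac promoter peak it was also higher in KO at *Gata2*, *Fli1* and *Runx3*. It was lower in KO at *Lmo2*, *Erg* and *Runx2*. The share of all genes was not computed for this measure. H3K4me3 at promoter 1 was 7.48 and 6.10 in WT against 8.09 and 7.38 in KO, and these overlapped.

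The ETS genes differed in promoter choice. *Erg*, on chromosome 16, was marked only at promoter 4, 127 kb downstream of its outermost TSS, with H3K9ac at 18.3 and 23.1 in WT against 15.7 and 17.1 in KO. Its H3K4me3 fold enrichments were 11.03 and 4.16 in WT against 7.11 and 5.96 in KO, which overlap. No list of any of the 4 marks had a peak at *Erg* promoters 1, 2 or 3. *Fli1*, on chromosome 9, was marked at both of its promoters, which are 1.27 kb apart and share one H3K9ac peak of 18.7 and 37.6 in WT against 15.4 and 31.9 in KO. Replicate 2 was higher than replicate 1 in each genotype, by more than the genotypes differed.

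*Lmo2*, on chromosome 2, had its strongest marks at promoters 2 to 4, which lie 11.54 to 13.2 kb downstream of its distal TSS. One H3K9ac peak covered them at 17.2 and 24.7 in WT against 18.9 and 40.3 in KO, and H3K4me3 was 13.9 and 8.07 in WT against 9.398 and 14.6 in KO at promoters 2 and 3. The distal promoter 1 had no H3K4me3 peak in any list. It carried H3K4me1 in replicate 2 of both genotypes, at 3.72 in WT and 4.10 in KO, and H3K9ac (3.65) and H3K27ac (3.95) in KO replicate 2 alone. *Gata2*, on chromosome 6, was marked at promoters 1 and 2, which lie 4.44 kb apart. The strongest H3K9ac peak in the window of promoter 2 was 5.25 and 3.62 in WT against 8.12 and 7.64 in KO. It lay between 2.31 and 3.91 kb from the outermost TSS, upstream of the TSS of promoter 2. At promoter 1 the genotypes overlapped, with 5.60 and 4.52 in WT against 5.91 and 5.20 in KO. As percentiles within their lists, the values of promoter 2 were 65.8 and 32.8 in WT against 75.3 and 67.4 in KO. Those of the strongest peak over all *Gata2* promoters overlapped, at 67.42 and 49.2 in WT against 75.3 and 67.41 in KO. The share of all promoters that differ in this way was not computed. The noncoding transcripts of *Gata2* that start 7.03 and 10.6 kb downstream had no H3K9ac peak.

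*Tal1*, on chromosome 4, was with *Gata2* the progenitor gene of lowest promoter enrichment of H3K9ac. It had 3.72 and 4.72 in WT against 2.85 and 5.85 in KO at promoter 2, and H3K4me3 was 8.02 and 5.37 in WT against 3.16 and 6.28 in KO. Both marks overlapped between genotypes in strength, but the H3K9ac peaks were wider in KO, with 361 and 554 bp for the strongest peak in WT against 811 and 2058 bp in KO. They reached the window of promoter 3, whose TSS lies at 3.08 kb, in both KO lists and in no WT list. In KO replicate 1 the peak that did so was weak, at a fold enrichment of 2.85 and the percentile 16.3 of its list. Promoter peaks of H3K27ac (5.21) and H3K4me1 (3.499) were listed in KO replicate 2 and in no other list. Erythroid marker promoters with an H3K9ac peak numbered 3 and 1 of 8 in WT and 4 and 6 of 8 in KO. Their part in the *Tal1* values was not tested.

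The other-lineage genes split in 2 classes. *Runx3* and *Runx2* were marked as strongly as the progenitor genes, each at its downstream promoter. *Runx3* promoter 2, on chromosome 4, had H3K9ac at 12.8 and 18.3 in WT against 13.5 and 15.7 in KO, and H3K4me3 at 10.3 and 7.55 in WT against 4.36 and 9.998 in KO. Its promoter 1, 31.8 kb upstream, had H3K9ac of 3.42 and 3.39 in WT and 3.60 in KO replicate 2, with no peak in KO replicate 1. *Runx2* promoter 2, on chromosome 17, had H3K9ac at 23.7 and 14.5 in WT against 15.02 and 14.1 in KO, and H3K4me3 at 10.3 and 12.6 in WT against 11.1 and 9.69 in KO. Its promoter 1, the upstream promoter known from bone, had H3K9ac of 3.04 and 3.27 in WT and 3.21 in KO replicate 1 alone. In both genes the genotypes overlapped at the stronger promoter. *Gata3*, on chromosome 2, carried H3K4me3 and H3K9ac weakly at 1 of 5 promoters. There H3K4me3 was 3.81 in WT replicate 1 and 5.21 and 4.18 in KO, and H3K9ac was 2.28 in WT replicate 1 and 2.67 in KO replicate 1. H3K4me1 was listed in KO replicate 2 at its promoters 1 (2.31) and 2 (2.86). *Gata1*, on chromosome X, had a single promoter peak, H3K4me1 at 3.499 in KO replicate 2. Bone marker promoters with H3K4me3 numbered 1, 1, 1 and 2 of 8.

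The marked promoters were mostly CpG-rich. The ratio of observed to expected CpG over 1 kb around the TSS had a median of 0.661 (0.310 to 0.951) at the 18 promoters with H3K4me3 in all 4 lists and 0.227 (0.133 to 0.481) at the 12 with none. A ratio of at least 0.6 was reached by 12 of the 18 and by 0 of the 12. Over the whole genome the shares were 75.5% of promoters marked in all 4 lists and 4.18% of those in none. *Runx1* promoter 1 (0.310) and *Erg* promoter 4 (0.322) were marked in every list although CpG-poor, as the printed windows show, and both are the start sites of named coding transcripts. *Runx3* promoter 3 (0.368) starts a noncoding transcript and lies under the peak of promoter 2. Neighbouring promoters under 1 peak are not separate observations.

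**Figure D2:**
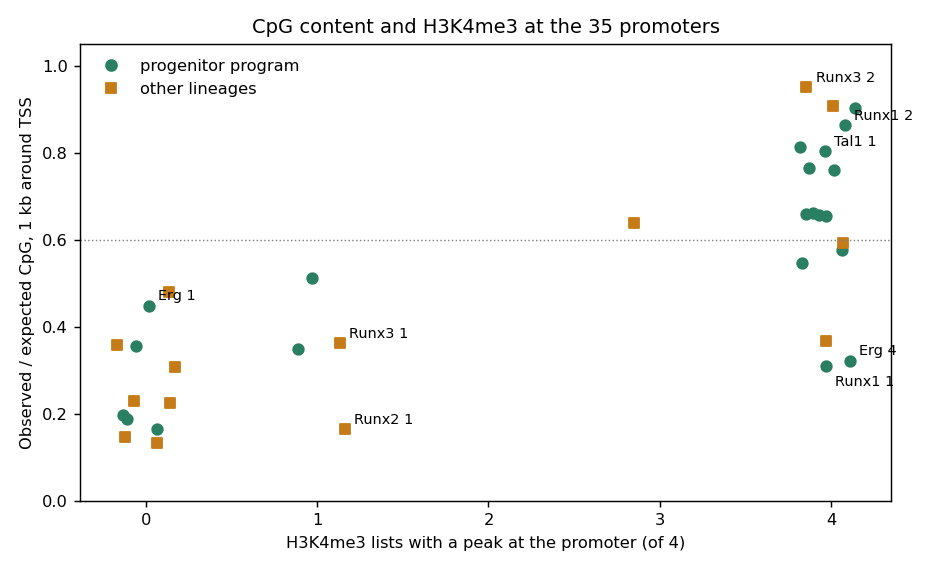
Observed over expected CpG in 1 kb around each TSS (vertical axis) against the number of H3K4me3 lists with a peak (horizontal axis, points spread sideways for visibility) for the 35 promoters. Circles are progenitor genes, squares other-lineage genes, and the dotted line is at 0.6. The promoters with no peak reach at most 0.481, and *Runx1* promoter 1 and *Erg* promoter 4 are the lowest of those marked in all 4 lists.

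Promoter strength was compared between genotypes as the percentile of the strongest promoter peak within its own list, which allows for different scales of enrichment. For the 8 genes with an H3K9ac promoter peak in all 4 lists, both KO values were below both WT values at *Runx1* and *Erg* and above them at none. Over 10837 genes tested in the same way, 24.9% were lower and 8.55% higher in KO, so 2 of 8 is close to the background. *Runx1* was at the percentiles 88.4 and 90.5 in WT against 85.7 and 83.3 in KO, and *Erg* at 94.5 and 97.4 in WT against 92.7 and 91.1 in KO. All values of both genes lay near the top of their lists. With 1 list per genotype a call needs 1.5-fold in the percentile itself, which neither gene reached. At such high percentiles a rise of that size cannot occur, so this rule says little about the fold enrichment. For H3K4me3, none of 8 genes was lower and none higher, beside 15.5% and 17.2% of 10247 genes. Of the partners, 3 of 13 were lower in H3K9ac (*Cbfb*, *Lyl1* and *Cbfa2t3*) and none higher. In H3K4me3, 3 of 11 were lower (*Lyl1*, *Etv6* and *Hhex*) and none higher.

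Over whole loci, the gene body with 50 kb either side, relative coverage is the share of bases under peaks divided by the share of the genome under peaks in the same list. *Lmo2* was the most covered gene in each H3K9ac list, with 9.51 and 11.8 in WT against 13.4 and 14.99 in KO. *Erg* followed in the WT means with 6.27 and 7.82 in WT against 7.17 and 6.87 in KO, and *Fli1* had 5.42 and 7.65 in WT against 4.54 and 7.69 in KO. *Runx3* (6.33 and 6.65 in WT, 5.06 and 5.49 in KO), *Runx2* (4.66 and 7.00 in WT, 3.60 and 5.17 in KO) and *Runx1* (5.19 and 5.63 in WT, 4.43 and 6.35 in KO) came next. In WT, *Erg*, *Fli1*, *Runx3* and *Runx2* overlapped with their neighbours in this order, and the 2 values of *Runx1* lay within the range of *Runx2*. *Gata2* had 2.71 and 3.91 in WT, below both values of *Runx1*, and 5.85 and 4.81 in KO, within the range of *Runx1* there. *Tal1* had 1.42 and 0.453 in WT against 2.02 and 2.47 in KO, and its WT range held that of *Gata1*.

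*Gata1* and *Gata3* stayed below the coverage of the genome in every H3K9ac list. *Gata1* had 0.455 and 0.567 in WT against 0.689 and 0 in KO, and its only H3K9ac region lies at the TSS of the neighbouring gene *Hdac6*. *Gata3* had 0.188 and 0 in WT against 0.359 and 0 in KO. The median relative coverage of all genes was 1.76 to 1.92 in these lists.

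**Figure D3:**
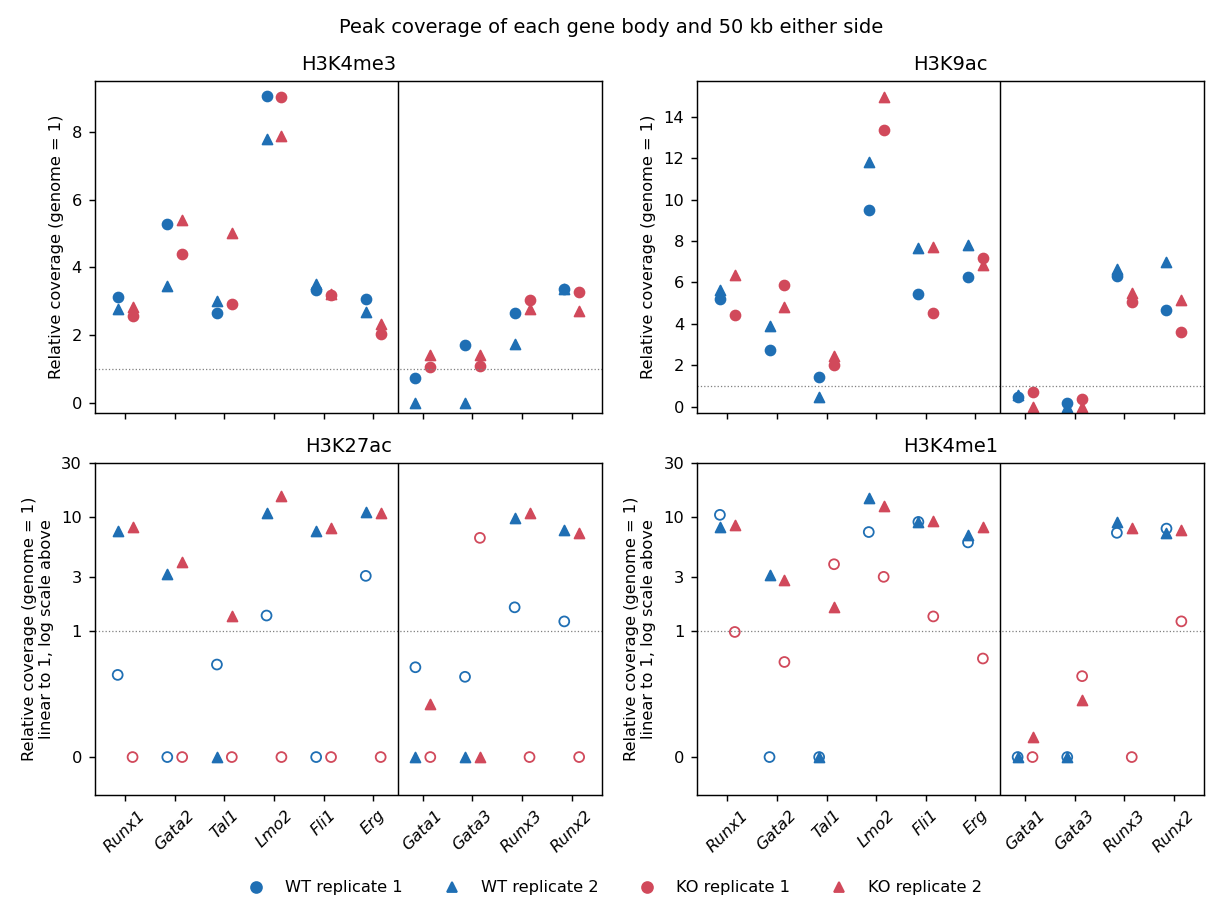
Relative coverage (genome = 1, dotted line) of each gene body with 50 kb either side, by mark. Blue is WT, red KO, circles replicate 1, triangles replicate 2, and open circles are the replicate 1 lists of narrow peaks; the lower axes are linear to 1 and logarithmic above. *Lmo2* lies highest and *Gata1* and *Gata3* lowest in the H3K9ac panel, and *Runx3* and *Runx2* lie with the progenitor genes to the left of the vertical line.

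Between genotypes, H3K9ac coverage of the whole locus was higher in both KO lists than in both WT lists at *Gata2*, *Tal1* and *Lmo2*, and lower at *Runx3*. The mean in KO was 1.61 times that in WT at *Gata2*, 2.40 times at *Tal1*, 1.33 times at *Lmo2* and 0.813 times at *Runx3*. Among 17179 genes, 20.8% were higher and 12% lower by the same rule, so 3 and 1 of 10 are close to the background. With 1 list per genotype a call needs 1.5-fold. The ratio of *Tal1* was 5.45 in replicate 2 alone and 1.42 in replicate 1 alone, that of *Gata2* 1.23 and 2.16, and that of *Lmo2* 1.27 and 1.41. At a q-value of at most 0.05 the *Tal1* values of the genotypes overlapped, with a ratio of 2.07. A distal region of *Gata2*, from -29.6 to -27.7 kb, had H3K9ac of 3.19 and 4.34 in WT against 4.85 and 8.29 in KO. Without the bases near TSS of other genes, which leaves out the promoter of *Fbxo3*, the ratio of *Lmo2* was 1.36.

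H3K4me3 coverage was lower in both KO lists at *Fli1*, *Erg* and *Runx2* and higher at *Gata1* and *Runx3*, beside 13.1% lower and 13.3% higher of 17672 genes. *Erg* had 3.06 and 2.68 in WT against 2.02 and 2.34 in KO, a ratio of 0.761, and *Runx3* had 2.66 and 1.75 in WT against 3.05 and 2.77 in KO. The ratio of *Erg* was 0.873 without replicate 1, where the call was lost, and 0.662 without replicate 2. *Fli1* (ratio 0.940) and *Runx2* (0.893) differed little, and their calls were lost without either replicate. *Gata1* had 0.734 and 0 in WT against 1.0499 and 1.42 in KO, a mean of 1.24 against 0.367. Without the bases near TSS of other genes the mean was 0.255 in KO and 0 in WT and the call was lost, as it was without replicate 2 (ratio 1.43). The call of *Runx3* was also lost without replicate 2, at a ratio of 1.15. These 5 of 10 genes did not share a direction.

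In replicate 2, H3K27ac coverage passed 1.5-fold at *Tal1* and *Gata1*, both listed at 0 in WT, with 1.36 and 0.420 in KO. In replicate 1 the order was the opposite, with 0.733 for *Tal1* and 0.712 for *Gata1* in WT and 0 in KO, from 1 peak of 48 bp each. The *Gata1* region of KO replicate 2 lies at the TSS of *Hdac6*. The part of the erythroid marker promoters, whose H3K9ac counts are given for *Tal1*, was not tested here. The other progenitor genes stayed within 1.5-fold, with *Lmo2* at 10.9 in WT and 15.3 in KO, *Erg* at 11.1 and 10.8, and *Runx1* at 7.58 and 8.29. Of 16124 genes, 16% were past 1.5-fold in the direction of KO and 8.61% in that of WT. H3K4me1 passed it at *Tal1* (1.64 in KO), *Gata1* (0.158) and *Gata3* (0.449), again all at 0 in WT, beside 30.4% and 18.6% of 17178 genes. KO replicate 2 is the longest list of both marks, with 46047 and 78042 peaks against 29757 and 45770 in WT. Relative coverage already divides by the share of the genome under peaks in the same list. It was recomputed with equal numbers of peaks and at a q-value of at most 0.05. List length as a cause of these values was not tested. For H3K4me1, neither was the lower share of WT peaks at that q-value.

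The progenitor group was covered more than the other-lineage group in each list of H3K9ac, H3K4me3 and, in replicate 2, H3K27ac and H3K4me1. For H3K9ac the group medians were 5.30 against 2.56 and 6.64 against 3.61 in WT, and 5.20 against 2.14 and 6.61 against 2.59 in KO. For H3K27ac they were 7.57 against 3.83 in WT and 8.17 against 3.82 in KO. The differences were 1.04 and 2.36 in WT against 0.996 and 2.04 in KO for H3K4me3, and 3.90 in WT and 4.33 in KO for H3K4me1. The groups overlapped in every list, because *Runx2* and *Runx3* lay with the progenitor genes and *Tal1* at the lower end of its group in acetylation. In H3K9ac and H3K27ac the medians of the 4 other-lineage genes fall between *Runx2* and *Runx3* on one side and *Gata1* and *Gata3* on the other, and describe neither pair. In replicate 1, H3K27ac gave -0.269 in WT and 0 in KO, and H3K4me1 3.07 and 0.845.

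Away from promoters, peaks were compared with distances at which hematopoietic enhancers of these genes are known by name, within 2 kb of each distance. A match is by distance alone. *Runx1* had H3K9ac 23 kb downstream of promoter 1 in all 4 lists, at 4.14 and 6.96 in WT against 3.13 and 6.63 in KO, with H3K27ac at 6.15 and 7.98 and H3K4me1 at 3.69 and 7.00 in replicate 2 of WT and KO. *Gata2* had H3K9ac 77 kb upstream, outside the 50 kb flank, at 2.25 and 6.07 in WT against 3.51 and 5.29 in KO, with H3K27ac at 6.83 and 8.92. No list had a peak at 9.5 kb downstream of *Gata2* promoter 1. *Lmo2* was marked 25 kb upstream of promoter 3, with H3K9ac at 7.06 and 12.03 in WT against 6.22 and 15.3 in KO and H3K27ac at 6.84 and 13.1. At this position the H3K9ac replicates differed more than the genotypes, and the H3K27ac values are 1 list per genotype.

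*Erg* had H3K9ac 85 kb downstream of promoter 3, at 4.25 and 6.15 in WT against 3.90 and 7.42 in KO, and at that distance from promoter 2, at 3.78 and 7.33 in WT against 6.41 and 4.18 in KO. No list had a peak there from promoters 1 or 4. *Tal1* had few peaks at its named distances. At 4 kb upstream of promoter 1, H3K9ac was listed in WT replicate 1 (2.61) and KO replicate 2 (2.97). At 40 kb downstream of promoter 1, H3K9ac was listed in WT replicate 1 (2.66) and KO replicate 2 (3.46), and at 19 kb downstream H3K4me1 was listed in KO alone, at 2.75 and 4.13. *Fli1* had no peak 15 kb upstream of either promoter. At 12 kb downstream of its promoter 1, H3K9ac was listed in both WT lists (3.004 and 2.62) and in neither KO list. Within 2 kb of the same distance from promoter 2, KO replicate 2 listed another H3K9ac peak (3.17), and WT replicate 2 an H3K27ac peak (3.89).

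**Figure D4:**
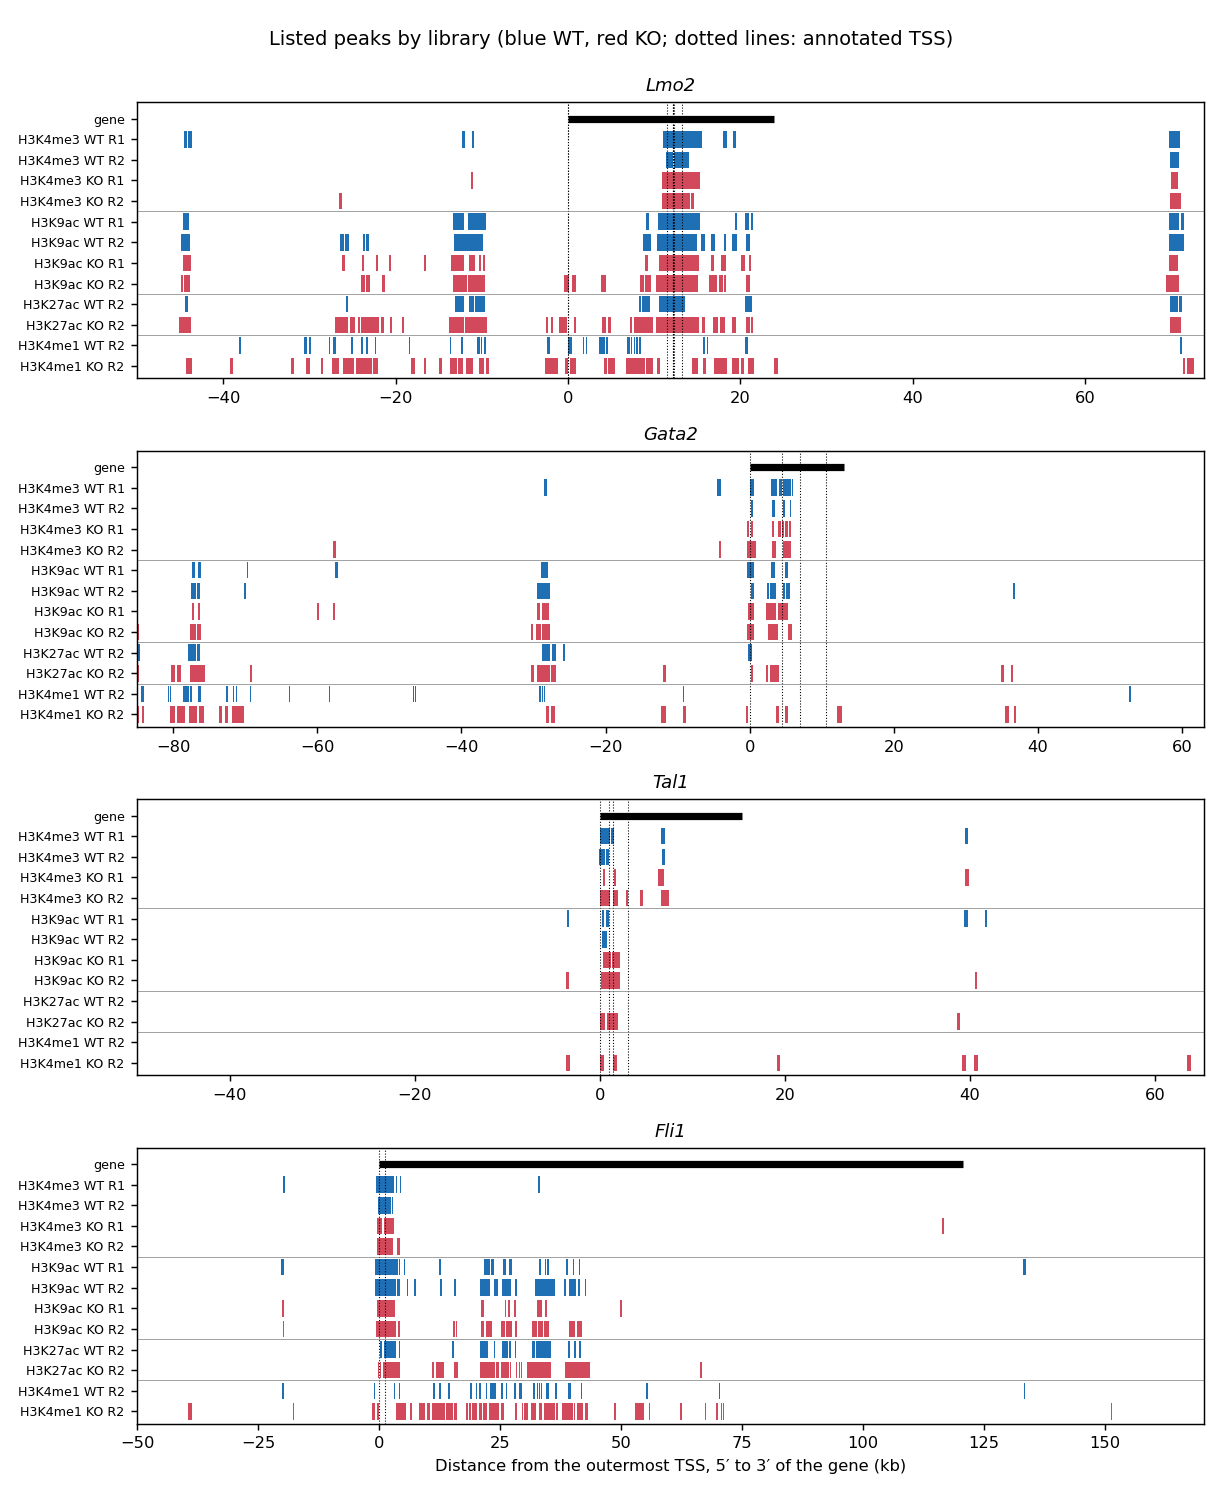
Peaks listed for *Lmo2*, *Gata2*, *Tal1* and *Fli1* in 12 lists (blue WT, red KO) by distance in kb from the outermost TSS, with the gene as a black bar and annotated TSS as dotted lines. Replicate 1 of H3K27ac and H3K4me1 is not drawn. The *Lmo2* map shows the block from -13.6 to -9.55 kb in all H3K9ac lists. The *Tal1* map shows H3K27ac and H3K4me1 in KO replicate 2 and not in WT replicate 2. The *Fli1* map shows the WT peaks near 12 kb.

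The loci of the 10 genes held 177 merged H3K9ac regions, of which 45 (25.4%) were in all 4 lists, 18 (10.2%) in both WT lists alone and 0 in both KO lists alone, beside 37%, 3.97% and 0.719% of 43976 regions of the genome. Their 61 H3K4me3 regions counted 16 in all 4 lists, 1 in WT alone and 1 in KO alone, beside 39.5%, 0.995% and 0.775%. Of the 146 regions more than 1 kb from any TSS, 29 (19.9%) were in all 4 lists, 18 (12.3%) were in both WT lists and no KO list, and 0 were in both KO lists and no WT list. Over 25960 such distal regions of the genome, the shares were 16.3%, 5.09% and 0.79%. This comparison was chosen after the values had been seen. The 18 regions lay in the loci of *Runx2* (8), *Runx3* (3), *Runx1* (2), *Fli1* (2), *Erg* (2) and *Lmo2* (1), so 11 of them belong to the other-lineage genes *Runx2* and *Runx3*. They were weak, with fold enrichments of 2.26 to 5.74 and medians of 2.80 and 3.24 in the WT replicates. The 29 regions in all 4 lists had medians of 3.67 and 5.40 in WT against 3.74 and 5.43 in KO. Both WT lists hold more peaks than both KO lists. When the same number of strongest peaks was taken from each list, 8 regions (5.97%) were in WT alone and 3 (2.24%) in KO alone, beside 3.69% and 1.48% of the genome. In replicate 1 alone and in replicate 2 alone, the share in WT alone was 50.4% and 33.6%, beside 48.7% and 38.5% of the genome.

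Other marks were listed in KO at most of these 18 regions, in the longer KO lists of replicate 2. H3K27ac of replicate 2 was present at 9 in WT and 14 in KO, and H3K4me1 at 9 in WT and 17 in KO. At the region of *Fli1* 12.3 to 12.9 kb downstream of its TSS, H3K27ac was 3.49 in KO and not listed in WT, and H3K4me1 was 4.23 in WT and 5.43 in KO. The region of *Runx2* 83.6 to 84.7 kb downstream of its outermost TSS had H3K9ac at 2.30 and 5.74 in WT, H3K27ac at 3.21 in KO and H3K4me1 at 3.02 in WT and 4.00 in KO. Among the 29 regions in all 4 H3K9ac lists, H3K27ac was present at 26 in WT and 29 in KO, and H3K4me1 at 18 and 29. They lay in the loci of *Erg* (7), *Runx2* (6), *Runx3* (5), *Runx1* (4), *Lmo2* (4), *Fli1* (2) and *Gata2* (1), and none in those of *Tal1*, *Gata1* and *Gata3*.

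The 300 bases around the H3K9ac summit of WT replicate 2 are printed for 2 distal elements that contrast in KO, the *Gata2* region 77 kb upstream, listed in all 4 lists, and the *Fli1* region in its intron, listed in WT alone. Capitals mark the motif letters found, which on the printed strand are the reverse complements of AGGAAG, the motif of ETS factors, of TGTGGT, that of RUNX factors, and of GATAA, that of the zinc-finger factors.
Gata2 77 kb upstream, intergenic, chr6:88116704-88117003, plus strand: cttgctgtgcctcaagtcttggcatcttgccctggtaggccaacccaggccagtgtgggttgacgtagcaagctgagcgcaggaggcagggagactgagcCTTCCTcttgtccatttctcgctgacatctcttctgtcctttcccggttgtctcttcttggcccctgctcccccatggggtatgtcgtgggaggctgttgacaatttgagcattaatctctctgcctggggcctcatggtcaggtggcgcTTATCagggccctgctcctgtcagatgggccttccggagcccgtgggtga
Fli1 12 kb downstream, intronic, chr9:32529900-32530199, minus strand: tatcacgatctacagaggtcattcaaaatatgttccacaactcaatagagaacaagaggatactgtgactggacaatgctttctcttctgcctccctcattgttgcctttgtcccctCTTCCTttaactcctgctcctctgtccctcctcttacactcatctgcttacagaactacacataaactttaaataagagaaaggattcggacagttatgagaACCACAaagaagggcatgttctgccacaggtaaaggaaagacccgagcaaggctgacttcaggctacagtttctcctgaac
The *Gata2* window held 1 GATA and 1 ETS match, and the *Fli1* window 1 ETS and 1 RUNX match. Each motif was searched on both strands in the 100 windows of the members that WT replicate 2 lists, where GATAA was found in 29%, AGGAAG in 38%, TGTGGT in 32% and the E-box CAGCTG in 24%. The shares among 15553 distal H3K9ac windows of the genome were 28.6%, 43.6%, 23.8% and 18.6%. In the 29 windows of regions in all 4 lists they were 24.1%, 41.4%, 41.4% and 24.1%. Windows of 1 gene are not independent, and a match is a description of the letters only.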

How the data were processed

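ChIP-seq of 4 histone marks gave 16 peak lists, 2 for each mark and genotype. The authors mapped reads to mm10 with BWA and ran MACS2 on every library. The deposited ratio of each peak is its fold enrichment at the summit. The deposited lists also give −log10 p-values, −log10 q-values and the peak caller's integer score. Peaks with a p-value up to 0.01 are listed, and no read counts are given.

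Peaks were set against GENCODE M21 with an overlap of 1 bp or more. Promoter windows held 1 kb before and 500 bp after a TSS, and loci included 50 kb either side of the gene. All 463075 peaks lay within the GRCm38 chromosomes. A gene was called different in H3K4me3 or H3K9ac when the 2 WT and 2 KO values did not overlap, and in H3K27ac or H3K4me1 (replicate 2 alone) past 1.5-fold. Counts were tested with the two-sided exact permutation test. The members and the lists of partners and markers were chosen with earlier results of these data known. All 10 members are named by rule, partners as counts with up to 4 names, and regions by the strongest peak at a promoter or named distance. B cell promoters with H3K4me3 numbered 3, 3, 2 and 2 of 8, and endothelial ones 2, 2, 2 and 1. The alternatives were a q-value of at most 0.05, equal numbers of peaks, the outermost TSS, peak summits, 10 kb flanks, loci without TSS of other genes, single replicates and both replicates. The 16 input libraries were not analysed here. Python 3.11.15, numpy 2.4.6, scipy 1.17.1 and matplotlib 3.10.9 were used. Scripts were tested on simulated data, with bedtools 2.31.1 as reference.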

Additional observations from a re-analysis of the deposited data

How the results depend on the processing

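The lists hold no depth, and 2 libraries of 1 pool per genotype cannot give p under 0.333. A missing peak therefore sets no upper limit on the mark, and replicate 2 of H3K27ac and H3K4me1 has no replicate.

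Among the recomputed values of the main comparisons, 10 changed direction and 34 moved. For H3K4me3 and H3K9ac, moved means beyond the spread between replicates. For counts of calls, regions or marked promoters it means by over 1.5 times, or to or from 0. H3K27ac and H3K4me1 have no spread between replicates here, so any change of a promoter count was called moved. Their group coverage was set against the standard deviation between the WT and KO values. The cause of the changes was not tested. For the members with a promoter peak, KO minus WT was 3 for H3K27ac with the outermost TSS, and -1 with replicate 1 and with both replicates. For H3K4me1 it was 7 at q of at most 0.05 and with summits in the window, 4 with equal numbers of peaks, and 0 with replicate 1 or with both replicates. Leaving out a replicate gave 0 to 1 for H3K4me3 and 0 to 0 for H3K9ac.

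Members with separate H3K9ac promoter strength numbered 1 with the outermost TSS or with summits, against 2, and 0 to 2 without a replicate. For H3K4me3 they numbered 1 with equal numbers of peaks or with the outermost TSS, against 0, and 2 to 3 without a replicate. Members with separate H3K4me3 coverage numbered 5 at q of at most 0.05 and 7 with equal numbers of peaks, where most were higher rather than lower in KO, 3 with 10 kb flanks, and 2 to 5 without a replicate. For H3K9ac coverage the range was 2 to 3 without a replicate, against 4. The share of all genes called was not computed under these alternatives, so these counts cannot be set against the background.

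The sources used here do not say whether a replicate number marks a shared day, and same-numbered deviations correlated at -0.0217 for H3K4me3 and 0.145 for H3K9ac across genes. With the replicate block, a change in the same direction in both pairs was seen for 6 members in H3K9ac promoter strength (4 lower and 2 higher in KO, beside 36.9% and 14.99% of all genes). It was seen for 1 in H3K4me3 promoter strength (higher, beside 26.99%), 6 in H3K4me3 coverage (3 lower and 3 higher, beside 20.8% and 19.5%) and 5 in H3K9ac coverage (2 lower and 3 higher, beside 20.7% and 34.8%). The promoter counts were 0.5 and 0 as before, which pairing cannot change, because the mean of paired differences equals the difference of the means.

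With replicate 1, coverage past 1.5-fold was found at 8 members for H3K27ac and 9 for H3K4me1, and with both replicates at 3 and 5, in each case mostly lower in KO. For H3K27ac, 83.3% of all genes were lower with replicate 1 and 96.4% with both replicates. For H3K4me1, 38.0% were lower and 58.7% higher with replicate 1, and 44.5% and 50.7% with both. The lists of replicate 1 differ greatly in length between genotypes, so these counts say little about the members. The KO minus WT coverage of H3K27ac in replicate 1 was -0.733 at *Tal1* and -0.712 at *Gata1*. For progenitor minus other-lineage coverage, 10 kb flanks gave 6.80 for H3K27ac, 5.15 for H3K9ac, 4.28 for H3K4me3 and 4.94 for H3K4me1, against 4.04, 3.21, 1.61 and 4.11. Equal numbers of peaks gave 3.61 for H3K27ac and 4.45 for H3K4me1. Replicate 1 gave -0.135 for H3K27ac and 1.96 for H3K4me1, and both replicates 0 and 11.1. The range without a replicate was 2.90 to 3.53 for H3K9ac and 1.02 to 2.20 for H3K4me3.

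Distal H3K9ac regions in KO alone numbered 2 at q of at most 0.05 and 3 with equal numbers of peaks, and those in WT alone 8 with equal numbers. Comparing single replicates gave 41 to 58 in WT alone and 19 to 22 in KO alone. The share in WT alone was then 33.6% without replicate 1 and 50.4% without replicate 2, beside 38.5% and 48.7% of the genome, so the excess of the members over the genome was not seen. The share in KO alone was 15.6% and 19.1%, beside 17.1% and 23.1%. The settings for these regions and for the promoters marked in all 4 lists were chosen after seeing the data. Promoters with a mark in all 4 lists numbered 17 to 18.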

Other observations

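In WT replicate 1 of H3K4me1, which holds 5368 narrow peaks, the relative coverage of the loci was 10.5 at *Runx1*, 9.11 at *Fli1*, 7.95 at *Runx2*, 7.42 at *Lmo2*, 7.30 at *Runx3* and 6.01 at *Erg*, against a median of 0 over all genes. It was 0 at *Gata2*, *Tal1*, *Gata1* and *Gata3*. These values rest on 2 to 7 peaks per locus. In KO replicate 1 the same 6 loci had 0 to 2.99, and *Tal1* had 3.86 from 4 peaks. *Gata3* had a relative H3K27ac coverage of 6.59 in KO replicate 1 from 1 peak of 49 bp.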
